A study of Danio rerio with 6 samples.

Results

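Neurotransmitter receptor genes were followed in hair cells of the adult zebrafish inner ear and in the cells around them. The genes were taken by symbol, as all rows named after nicotinic and muscarinic acetylcholine, ionotropic and metabotropic glutamate, GABA, glycine, serotonin, dopamine, adrenergic, P2X and P2Y receptors. The row chrna9 was left out. This gave 179 of 31387 gene rows, and the choice used no measured value. Of these, 176 name receptors or receptor subunits, in 16 classes. The other 3 rows, grid2ipa, grid2ipb and adrbk2, share the first letters of receptor symbols but encode no receptor, and counts are given with and without them.

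Receptors of this kind fall into channels that open when the transmitter binds and G protein coupled receptors that act through second messengers. Channels are assembled from several subunits, so a subunit alone does not make a receptor of every type. In the inner ear, hair cells release glutamate onto AMPA receptors of afferent nerve fibres, and efferent fibres release acetylcholine, which acts on hair cells through nicotinic receptors that hold the alpha9 subunit.

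Hair cells had 2 biological samples and surrounding cells had 1, and each sample was sequenced as 2 technical replicates that were averaged. All samples came from adult females 11 to 13 months old of the strain Tg(pou4f3:GAP-GFP)s273t, in which the promoter of the hair cell gene pou4f3 drives a membrane-bound green fluorescent protein, and each held 2000 cells. Hair cells were the fluorescent cells pooled from lagena, utricle and saccule, and surrounding cells were those without fluorescence. The library names begin with fish for hair cell replicate 1 and zhc for replicate 2, and with fish_WT for the surrounding cells. The meaning of WT is not explained in the labels.

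Mapped reads, inferred from the RPKM values, numbered 31902175 in hair cell replicate 1, 102357841 in hair cell replicate 2 and 34348634 in the surrounding cells. Levels are given as RPKM, reads scaled to gene model length and to the mapped reads of the sample. Of 18 hair cell markers, 17 were called higher in hair cells, and their summed level was 27528 and 25114 RPKM in hair cells against 26.0 RPKM in surrounding cells. Of 10 supporting cell markers, 7 were also higher by the same test and 1 was lower, with sums of 2030 and 2270 RPKM against 36.1 RPKM. The lower one, fgfr3, had 1.02 and 0.823 RPKM in hair cells against 6.85 RPKM in surrounding cells. sox2 was at 0 in hair cell replicate 2 and in the surrounding cells. Surrounding cells were higher in markers of epithelium (6 of 6, sums of 477 and 558 RPKM in hair cells against 9828 RPKM in surrounding cells). The same direction held for leukocytes (8 of 13, 72.7 and 55.0 against 1091 RPKM), fibroblasts and matrix (6 of 7, 65.9 and 59.3 against 596 RPKM) and endothelium (6 of 8, 2.40 and 2.78 against 32.3 RPKM), while the leukocyte marker lyz was higher in hair cells. Most of the leukocyte sum in surrounding cells was cd74a and cd74b, at 822 and 234 RPKM. The labelled surrounding cells thus carried fewer transcripts of most supporting cell markers than the hair cell samples did. Whether supporting cells were present in the hair cell samples, or whether this list marks them here, was not tested. Of 22 neuron markers, 4 were higher in hair cells and 1 lower, with sums of 187 and 170 RPKM against 34.9 RPKM. Most of the hair cell sum was sncb, at 129 and 110 RPKM. Of 11 Schwann cell and glia markers, 1 was higher and 4 lower, with sums of 227 and 228 RPKM against 252 RPKM. The higher one, fabp7a, made up most of the hair cell sum, at 138 and 154 RPKM against 4.11 RPKM in surrounding cells. The part of any of these cell types in the receptor differences was not tested.

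Most receptor genes were scarce in every sample. Of the 179 rows, 172 had reads in at least 1 sample and 7 had none. At least 1 RPKM was reached by 23 rows in hair cell replicate 1, by 26 in hair cell replicate 2 and by 14 in the surrounding cells. These were 12.8%, 14.5% and 7.82% of the rows, against 39.6%, 39.2% and 41.7% of all genes. The summed level of all 179 was 99.3 and 88.5 RPKM in the hair cell replicates against 109.7 RPKM in the surrounding cells. For scale, chrna9, the alpha9 subunit gene that the rule left out, had 99.2 and 99.0 RPKM in hair cells against 0.315 RPKM in surrounding cells. The 176 rows that name receptors summed to 86.5 and 79.7 RPKM in hair cells against 109 RPKM in surrounding cells, so that chrna9 alone was above their sum in both hair cell replicates. In pooled cells, fewer cells of a type and less RNA per cell cannot be told apart.

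Both hair cell replicates were lower than the surrounding cells for 94 of the 179 rows, against 41.4% of all genes. Both were higher for 41 rows, against 30.1% of all genes. This order rested on the scaling, since quantile normalization gave 64 rows lower, against 36.1% of all genes, and 67 higher, against 33.6%. The median difference over all 179 rows, taken as hair cell mean less surrounding cell value in log2(RPKM + 1), was -0.067, and over all genes it was 0. All genes include 4867 rows without reads in any sample, against 7 of the 179. Among rows with reads, the median was -0.077 for the 172 members and -0.054 for 26520 genes. Of these, both replicates were lower for 54.7% of members and 49.0% of genes, and higher for 23.8% and 35.6%. The sign of the median over the 179 rows turned under quantile normalization, where it was 0.018. Only 38 rows, or 21.2%, reached 1 RPKM in a sample and were tested, against 50.3% of all genes, and 141 were not.

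Genes were called with limma on log2(RPKM + 1), at an adjusted p under 0.05 and a difference of at least 1. Of the 38 rows tested, 8 were called higher in hair cells, beside a background of 17.7% of the genes tested, and 8 were called lower, beside 18%. These shares were near the background, and nothing about receptor genes as a set is read from the number of calls. Without the 3 rows that encode no receptor, 7 were higher and 8 lower. Quantile normalization gave 15 higher, beside 20% of genes, and 5 lower, beside 20.9%, so the share of higher calls then lay above its background. At an unadjusted p under 0.05, 14 were higher, beside 26.2% of genes, and 10 lower, beside 24.6%. A rule of size without a test asked that both replicates differ by at least 1 and that the group with more reach 1 RPKM. It took 9 rows higher (9.37% of all genes) and 8 lower (9.04%). With either hair cell replicate left out it took 14 higher and 8 lower. The share of all genes was not computed there, so this rise is not read as a trait of receptor rows. A fit to reads recovered from the RPKM values (limma-voom) called 6 higher, beside 18.4% of genes, and 8 lower, beside 21.2%. Of the 8 higher calls, 4 were shared by both fits, and of the 8 lower calls, 8 were. The fit to reads pooled its variance over all genes, with 15803 total degrees of freedom. The spread between replicates of a single gene therefore did not enter its p.

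**Figure D1:**
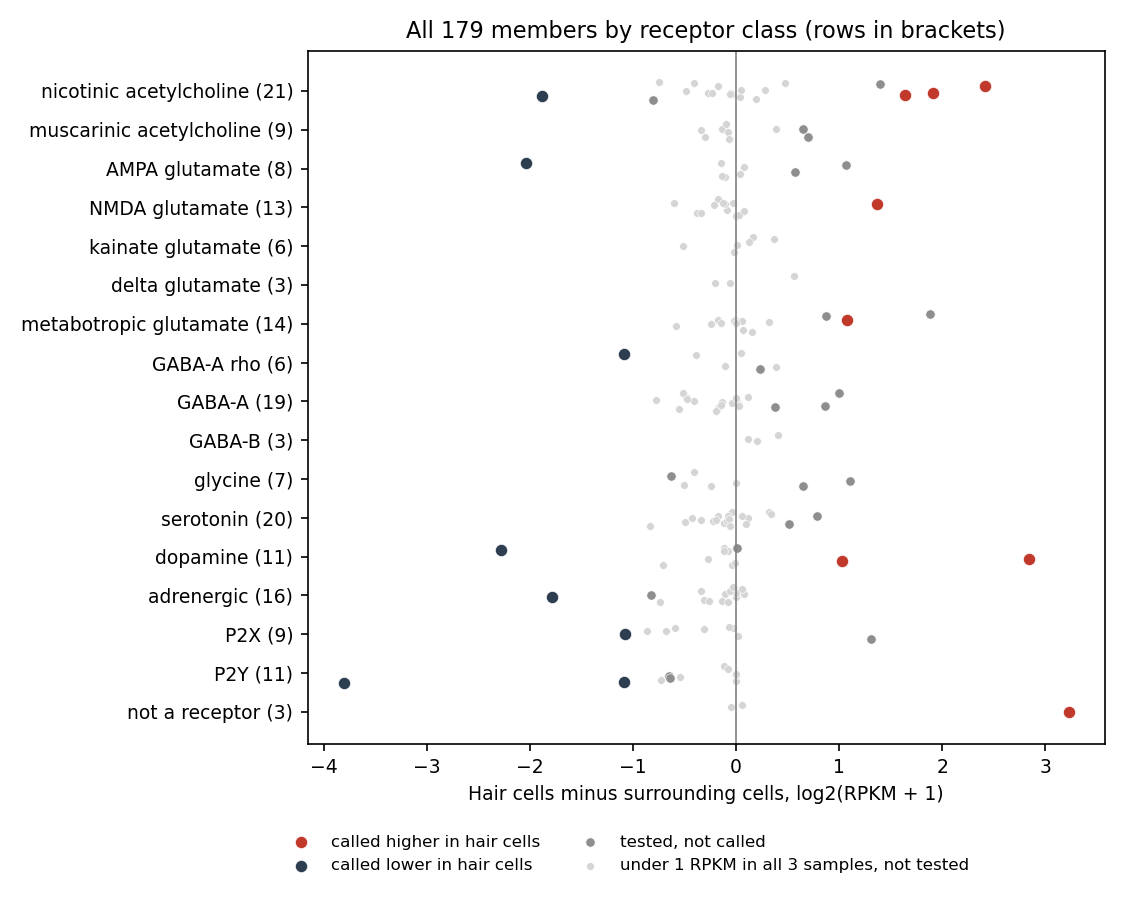
Difference of each of the 179 rows, hair cell mean less surrounding cell value in log2(RPKM + 1), by receptor class with the number of rows in brackets, where each point is 1 gene. Most points lie near 0, and the called genes run between -3.80 for P2RY2 (1 of 3) and 3.22 for grid2ipb, with P2Y and adrenergic genes lying at or left of 0 but for small differences.

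Calls in both directions occurred within the same receptor classes. Of 6 nicotinic rows tested, 3 were higher and 1 lower, and of 4 dopamine rows tested, 2 were higher and 1 lower. Of 2 P2X, 4 P2Y and 2 adrenergic rows tested, 1, 2 and 1 were lower and none was higher. Subunits of transmitter-gated channels numbered 95, of which 20 were tested, 4 called higher and 4 lower. G protein coupled receptors numbered 81, of which 17 were tested, 3 called higher and 4 lower. The shares of channel subunits and of G protein coupled receptors lay near the background of 17.7% and 18%. Single classes had too few tested rows to be set against it, and no test of a class was made.

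**Figure D2:**
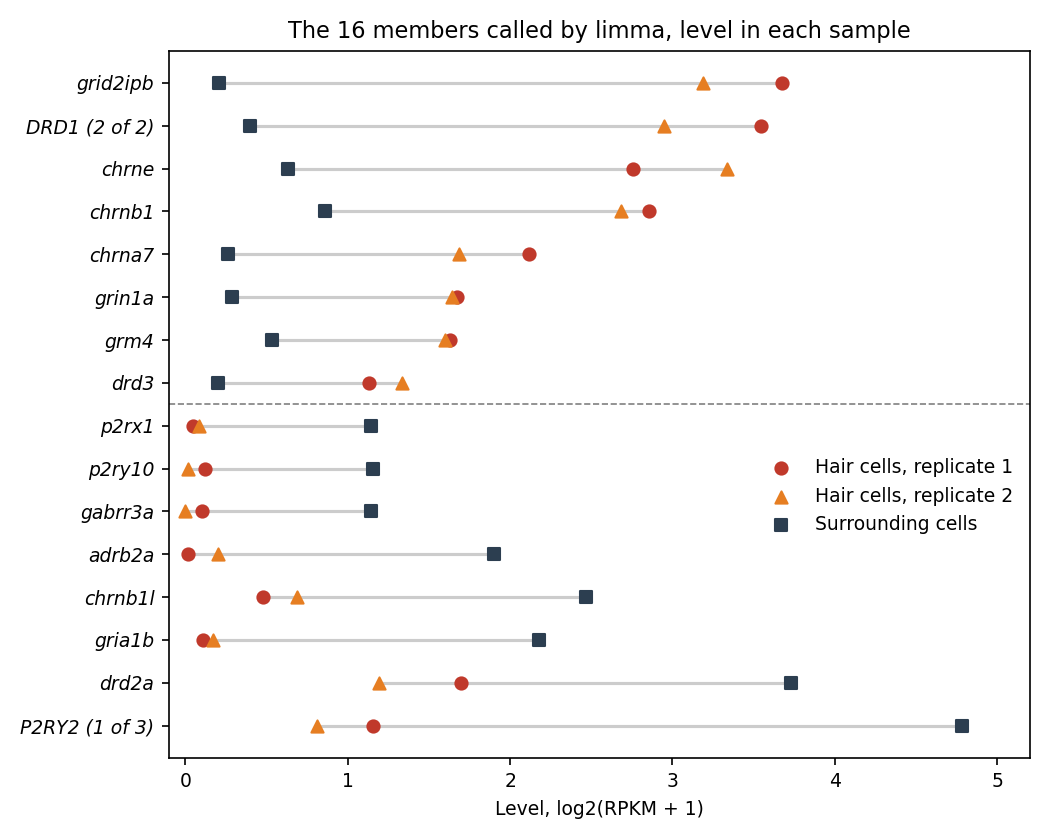
Level of the 16 called genes in hair cell replicate 1 (circles), hair cell replicate 2 (triangles) and surrounding cells (squares), on a log2(RPKM + 1) axis. Above the dashed line are the 8 genes called higher in hair cells and below it the 8 called lower, and in no gene does the surrounding cell value fall between the hair cell values.

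Many calls depended on a setting. A pseudocount of 5 RPKM ended the calls of gria1b, gabrr3a, grin1a, p2rx1, p2ry10, adrb2a, drd3, grm4, chrna7, chrnb1 and chrnb1l. Testing without a filter ended those of grin1a, DRD1 (2 of 2), drd2a, drd3, grm4, chrna7, chrnb1l and chrne. Quantile normalization ended those of gabrr3a, p2rx1 and p2ry10, and use of technical replicate 2 alone ended those of drd3 and chrna7. P2RY2 (1 of 3) and grid2ipb were called in every fit, and no called gene changed direction.

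Acetylcholine receptors came first in level among the channel subunits of hair cells. chrne, the epsilon subunit that is part of the adult muscle receptor (ENSDARG00000034307, chromosome 5), had 5.75 and 9.10 RPKM in hair cells against 0.548 RPKM in surrounding cells. The levels rest on 469 and 2381 reads against 48 reads. Both hair cell values were above the surrounding cell value, and the difference was 2.42 ± 0.38 (SE, adjusted p = 0.0213). The mean level was 13.6-fold higher in hair cells.

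chrnb1, the beta1 subunit of muscle receptors (ENSDARG00000069660, chromosome 7), had 6.25 and 5.42 RPKM in hair cells against 0.813 RPKM in surrounding cells. It was higher in both replicates, by 1.91 ± 0.28 (SE, adjusted p = 0.0184). Its relative chrnb1l (ENSDARG00000022532, chromosome 7) went the other way, with 0.393 and 0.608 RPKM in hair cells against 4.53 RPKM in surrounding cells. chrnb1l fell in both replicates, with a difference of -1.89 ± 0.23 (SE, adjusted p = 0.0131). chrnb1 and chrnb1l are related genes, and reads that match both cannot be assigned with certainty. The part of such reads in either level was not tested.

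The remaining muscle receptor subunits were close to absent from hair cells. chrna1, the alpha1 subunit that binds acetylcholine in muscle, had 0.124 and 0.0171 RPKM in hair cells against 0.0384 RPKM in surrounding cells, from 9 and 4 reads against 3 reads. chrnd, the delta subunit, had no reads in either hair cell replicate and 9 reads in surrounding cells. In hair cell replicate 2 a count of 0 allows up to 0.0145 RPKM of chrnd at a floor of 3 reads. chrng, the gamma subunit of embryonic muscle, had 0 and 0.0311 RPKM in hair cells against 0.704 RPKM in surrounding cells. None of chrna1, chrnd and chrng reached 1 RPKM, so they were not tested. Of 18 muscle markers, 10 fell in hair cells and 1, desma, rose, with sums of 18.3 and 20.8 RPKM in hair cells against 197 RPKM in surrounding cells. The part of muscle cells in the differences of chrne, chrnb1 and chrnb1l was not tested.

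chrna7, the alpha7 subunit that can form receptors by itself (ENSDARG00000101702, chromosome 7, currently chrna7a), had 3.34 and 2.21 RPKM in hair cells against 0.197 RPKM in surrounding cells. Both replicates were higher, by 1.64 ± 0.30 on average (SE, adjusted p = 0.0294). The surrounding cell value came from 12 reads, and chrna7 was not called in the fit to recovered reads (adjusted p = 0.133).

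A second alpha9 row, CHRNA9 (2 of 2), currently chrna9b, had 2.74 and 1.37 RPKM in hair cells against 0.134 RPKM in surrounding cells. Its difference of 1.39 did not pass the threshold (adjusted p = 0.0594), although both replicates lay more than 1 above the surrounding cells. CHRNA9 (2 of 2) was far below chrna9 in level, and reads that match both genes cannot be assigned with certainty. chrna10a, whose mammalian relative forms receptors with alpha9, had 0.0329 and 0.00513 RPKM in hair cells against 0.154 RPKM in surrounding cells, or 2 and 1 reads against 10 reads.

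chrna4b, the alpha4 subunit best known from brain, was the nicotinic gene with the highest level in surrounding cells. It had 2.63 and 2.62 RPKM in hair cells against 5.32 RPKM in surrounding cells, a difference of -0.80 that was not called (adjusted p = 0.0965). The usual partner of alpha4, beta2, is encoded by chrnb2a and chrnb2b. chrnb2b had 0.584 and 0.648 RPKM in hair cells against 0.415 RPKM in surrounding cells, and chrnb2a was at 0 in both hair cell replicates against 0.405 RPKM. Over all 21 nicotinic rows the sums were 23.1 and 23.7 RPKM in hair cells against 15.0 RPKM in surrounding cells.

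**Figure D3:**
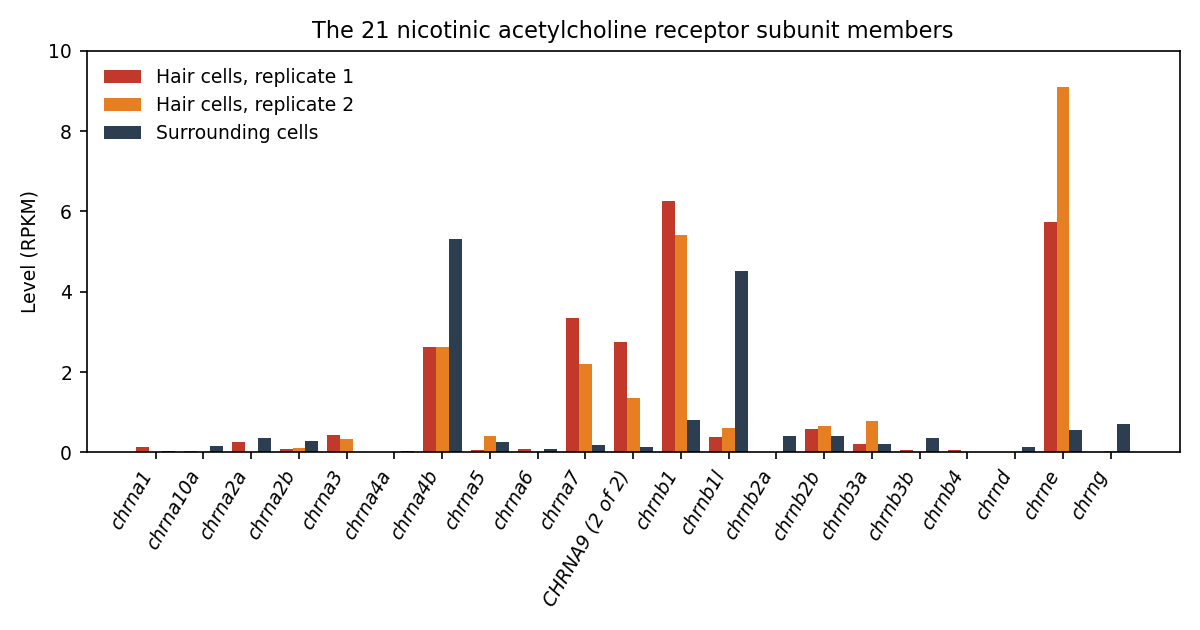
RPKM of the 21 nicotinic subunit rows in hair cell replicate 1, hair cell replicate 2 and surrounding cells, as bars from 0, with 1 sample per bar. chrne and chrnb1 are highest in hair cells, at 5.75 and 9.10 RPKM and at 6.25 and 5.42 RPKM, while chrna4b and chrnb1l are highest in surrounding cells, at 5.32 and 4.53 RPKM.

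Muscarinic receptors, which couple acetylcholine to G proteins, were low throughout, with summed levels of 2.80 and 1.66 RPKM in hair cells against 1.38 RPKM in surrounding cells. None of the 9 rows was called. The highest value in the class was that of chrm3a, an M3 type receptor that couples to phospholipase C, which had 0.726 and 1.03 RPKM in hair cells against 0.151 RPKM in surrounding cells. Its difference was 0.70 (adjusted p = 0.0523). chrm5a and chrm5b, of the M5 type, had reads in both hair cell replicates and none in the surrounding cells. For chrm5a the levels were 1.02 and 0.222 RPKM in hair cells against a floor of 0.0567 RPKM in surrounding cells.

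Among glutamate-gated channels, the gene called higher in hair cells was grin1a (ENSDARG00000027828, chromosome 21). It encodes GluN1, the subunit that every NMDA receptor needs. grin1a had 2.19 and 2.12 RPKM in hair cells against 0.221 RPKM in surrounding cells, from 376 and 1170 reads against 41 reads. The hair cell replicates were nearly equal, and the difference was 1.37 ± 0.21 (SE, adjusted p = 0.0196). The other 12 NMDA rows stayed under 1 RPKM in all samples. Of the GluN2 subunits that complete the receptor with GluN1, grin2ca had the highest level, at 0.263 and 0.806 RPKM in hair cells against 0.959 RPKM in surrounding cells. grin1b, the second GluN1 gene, had 0.0122 and 0.00567 RPKM in hair cells against 0.0732 RPKM in surrounding cells.

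AMPA receptor subunits, which carry fast excitatory transmission, differed by gene. gria1b (ENSDARG00000032714, chromosome 21), a GluA1 subunit, had 0.0799 and 0.127 RPKM in hair cells against 3.52 RPKM in surrounding cells. It was low in both hair cell replicates, from 10 and 51 reads against 475 reads, and the difference was -2.03 ± 0.16 (SE, adjusted p = 0.00757). Its mean level was 34.1-fold lower in hair cells. gria4a, a GluA4 subunit, lay on the other side, with 3.02 and 2.32 RPKM in hair cells against 0.743 RPKM in surrounding cells. Its difference of 1.07 was not called by limma (adjusted p = 0.0576) and was called in the fit to recovered reads. GluA2 subunits, which make AMPA receptors nearly impermeable to calcium, were low in all samples, with gria2a at 0.132 and 0.0738 RPKM in hair cells against 0.0735 RPKM in surrounding cells. gria2b was at 0.156 and 0.00973 RPKM against 0.197 RPKM.

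Kainate and delta receptor genes gave no call, since none reached 1 RPKM. The 6 kainate rows summed to 2.18 and 0.966 RPKM in hair cells against 1.51 RPKM in surrounding cells, and GRIK3, which held the highest single value, had 0.282 and 0.162 RPKM in hair cells against 0.747 RPKM in surrounding cells. Among the 3 delta rows, whose products act mainly as synaptic adhesion partners, grid1a led with 0.590 and 0.940 RPKM in hair cells against 0.193 RPKM in surrounding cells.

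Metabotropic glutamate receptors summed to 7.86 and 9.07 RPKM in hair cells against 2.86 RPKM in surrounding cells, and the 3 rows above 1 RPKM all belonged to group III, which inhibits adenylyl cyclase. grm4 (ENSDARG00000040156, chromosome 6) had 2.09 and 2.03 RPKM in hair cells against 0.448 RPKM in surrounding cells, and both replicates were higher. Its difference was 1.08 ± 0.21 (SE, adjusted p = 0.0336), and it was not called in the fit to recovered reads (adjusted p = 0.158) or with pseudocounts of 0.1 and 5 RPKM or no filter. grm6b, a relative of the receptor of retinal bipolar cells, had 1.77 and 4.82 RPKM in hair cells against 0.0920 RPKM in surrounding cells. The replicates of grm6b were too far apart for a call by limma, with a difference of 1.88 (adjusted p = 0.0751), although both lay above the surrounding cells. The fit to recovered reads called grm6b, but its pooled variance takes no account of the distance between the replicates of this gene. grm6a had 2.29 and 1.39 RPKM in hair cells against 0.529 RPKM in surrounding cells (difference 0.87, adjusted p = 0.10).

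Inhibitory receptors were low in both cell groups. The 19 GABA-A rows summed to 5.71 and 5.75 RPKM in hair cells against 6.20 RPKM in surrounding cells, and none was called. gabrp, the pi subunit, reached 2.49 RPKM in hair cell replicate 2 but 0.148 RPKM in replicate 1, against 0.103 RPKM in surrounding cells, so its hair cell replicates stood far apart.

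Of the 6 rho subunits, which form GABA channels of slow kinetics, gabrr3a (ENSDARG00000027153, chromosome 10) was called lower. It had 0.0751 and 0 RPKM in hair cells against 1.20 RPKM in surrounding cells, or 4 and 0 reads against 69 reads. The difference was -1.09 ± 0.12 (SE, adjusted p = 0.0103), and the 0 of gabrr3a in replicate 2 allows up to 0.0176 RPKM at the floor of 3 reads. The 3 GABA-B rows, which encode the G protein coupled GABA receptor, were higher in both hair cell replicates (30.1% of all genes) but under 1 RPKM. gabbr2 led them with 0.790 and 0.233 RPKM in hair cells against 0.125 RPKM in surrounding cells.

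Glycine receptor genes summed to 4.22 and 4.18 RPKM in hair cells against 4.17 RPKM in surrounding cells, and none was called. The alpha subunit gene glra3 had 1.51 and 2.51 RPKM in hair cells against 0.381 RPKM in surrounding cells (difference 1.1, adjusted p = 0.0668). The beta subunit gene glrbb, whose product anchors the receptor at synapses, had 1.37 and 1.22 RPKM in hair cells against 2.56 RPKM in surrounding cells (difference -0.64, adjusted p = 0.119). Of the 7 glycine rows, 2 were higher in both hair cell replicates (30.1% of all genes) and 4 were lower in both (41.4%).

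Dopamine receptor genes were called in both directions. DRD1 (2 of 2), currently drd1a (ENSDARG00000071640, chromosome 14), encodes a D1 type receptor that stimulates adenylyl cyclase. It had 10.6 and 6.73 RPKM in hair cells against 0.320 RPKM in surrounding cells, from 371 and 752 reads against 12 reads. Both replicates were higher, by 2.85 ± 0.38 (SE, adjusted p = 0.0156), and the mean level was 27.2-fold higher in hair cells. DRD1 (2 of 2) just missed the threshold in the fit to recovered reads (adjusted p = 0.0510). Its paralogue drd1b had no reads in hair cells and 6 reads in surrounding cells.

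drd2a, a D2 type receptor that inhibits adenylyl cyclase (ENSDARG00000056926, chromosome 15), had 2.24 and 1.29 RPKM in hair cells against 12.3 RPKM in surrounding cells. Both replicates were lower, with a difference of -2.28 ± 0.36 (SE, adjusted p = 0.0209), from 187 and 345 reads against 1100 reads. drd2b, the other D2 gene, was level between the groups, at 2.60 and 2.51 RPKM in hair cells against 2.54 RPKM in surrounding cells (difference 0.01, adjusted p = 0.989). drd3, a further D2 type receptor (ENSDARG00000032131, chromosome 24), had 1.19 and 1.52 RPKM in hair cells against 0.151 RPKM in surrounding cells. drd3 was higher by 1.03 ± 0.19 (SE, adjusted p = 0.0282), close to the threshold of 1, and was not called in the fit to recovered reads (adjusted p = 0.194). The 11 dopamine rows summed to 17.4 and 12.7 RPKM in hair cells against 17.2 RPKM in surrounding cells, so similar sums were made up of different genes.

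Serotonin receptors had 20 rows, of which 2 were tested and none was called, 3 were higher in both hair cell replicates (30.1% of all genes) and 11 lower (41.4%). The widest difference of the class, -0.84, was that of htr2cl1, which had 0.0568 and 0.0731 RPKM in hair cells against 0.902 RPKM in surrounding cells and was not tested. HTR4, which stimulates adenylyl cyclase, had 1.70 and 0.778 RPKM in hair cells against 0.272 RPKM in surrounding cells (difference 0.78, adjusted p = 0.145). htr1b, which inhibits it, had 0.141 and 1.27 RPKM in hair cells against 0.131 RPKM in surrounding cells, so that only replicate 2 stood apart. Of the serotonin-gated channel subunits, htr3b had 0.959 RPKM in replicate 1 and no reads in replicate 2, against 0.106 RPKM in surrounding cells.

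Among the 16 adrenergic rows, none was higher in both hair cell replicates, against 30.1% of all genes, and 9 were lower in both, against 41.4%. adrb2a, a beta2 receptor that stimulates adenylyl cyclase (ENSDARG00000088124, chromosome 14), had 0.0122 and 0.152 RPKM in hair cells against 2.73 RPKM in surrounding cells, from 2 and 80 reads against 483 reads. The difference of adrb2a was -1.79 ± 0.16 (SE, adjusted p = 0.00862). Its hair cell replicates were far apart in RPKM, but log2(RPKM + 1) draws values this near 0 together. The small SE therefore does not show that the replicates were alike. adrb3a, a beta3 receptor, had 0.0775 and 0.343 RPKM in hair cells against 1.13 RPKM in surrounding cells. Its adjusted p was 0.0456, but its difference of -0.83 was smaller than the threshold, so it was not called. Under quantile normalization 4 adrenergic rows were higher in both replicates, against 33.6% of all genes, and 7 lower, against 36.1%. The adrenergic sums were 1.38 and 1.21 RPKM in hair cells against 6.50 RPKM in surrounding cells.

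Purine receptors held the largest level of any receptor row. P2RY2 (1 of 3), a receptor for ATP and UTP that couples to phospholipase C (ENSDARG00000099915, chromosome 18), had 1.22 and 0.751 RPKM in hair cells against 26.6 RPKM in surrounding cells. The reads were 42 and 83 against 984. Both replicates were far lower, with a difference of -3.80 ± 0.31 (SE, adjusted p = 0.00784), and its mean level was 26.9-fold lower. P2RY2 (1 of 3) has 2 more rows of the same name, which had 0 and 0 RPKM in hair cells and at most 3 reads in surrounding cells, and reads shared by such copies cannot be assigned with certainty. In surrounding cells this gene made up most of the P2Y sum, which was 3.63 and 2.17 RPKM in hair cells against 33.0 RPKM in surrounding cells.

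p2ry10, a lysophosphatidylserine receptor of lymphoid cells in mammals (ENSDARG00000062811, chromosome 14), had 0.0868 and 0.0135 RPKM in hair cells against 1.23 RPKM in surrounding cells. With 4 and 2 reads against 61 reads it was lower in both replicates, with a difference of -1.09 ± 0.12 (SE, adjusted p = 0.0105). The call of p2ry10 was lost with a pseudocount of 5 RPKM, under quantile normalization and with technical replicate 1 alone. P2RY1, an ADP receptor, had 0.924 and 1.16 RPKM in hair cells against 2.21 RPKM in surrounding cells (difference -0.65, adjusted p = 0.103). p2ry12, an ADP receptor of platelets and microglia in mammals, had no reads in hair cells and 35 reads in surrounding cells. Of the 11 P2Y rows, 3 had no reads in any sample, 8 were lower in both hair cell replicates and none was higher in both, against 41.4% and 30.1% of all genes. With quantile normalization 6 were lower, against 36.1% of all genes, and none higher, against 33.6%. Leukocyte and epithelium markers were also lower in hair cells, as given above, and the part of these cells in the P2Y differences was not tested.

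The P2X receptors are channels opened by ATP. p2rx1 (ENSDARG00000016695, chromosome 5), known from smooth muscle and platelets in mammals, had 0.0313 and 0.0617 RPKM in hair cells against 1.21 RPKM in surrounding cells. It was lower, with a difference of -1.08 ± 0.11 (SE, adjusted p = 0.00944), from 3 and 19 reads against 126 reads. The smooth muscle markers acta2 and tagln were lower in hair cells as well. The level of tagln was 0.913 and 0.178 RPKM in hair cells against 76.5 RPKM in surrounding cells. In contrast, desma, from the same list of muscle markers, was called higher in hair cells (difference 3.20, adjusted p = 0.00894). Another marker of that list, myh11a, stayed under 1 RPKM in all samples and was not tested. The part of smooth muscle cells in the difference of p2rx1 was not tested. p2rx2, described in hair cells and supporting cells of the mammalian cochlea, lay in the other direction from p2rx1. It had 0.947 and 3.08 RPKM in hair cells against 0.136 RPKM in surrounding cells. Its difference of 1.31 was not called (adjusted p = 0.141).

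The row with the largest positive difference encodes no receptor. grid2ipb (ENSDARG00000095603, chromosome 12) is a gene for delphilin, a scaffold protein of cerebellar synapses in mammals. It had 11.8 and 8.12 RPKM in hair cells against 0.155 RPKM in surrounding cells, from 1624 and 3589 reads against 23 reads. grid2ipb was higher in both replicates, by 3.22 ± 0.35 (SE, adjusted p = 0.0107), and 64.1-fold in mean level. The second delphilin gene grid2ipa had 2 and 2 reads in hair cells and 10 reads in surrounding cells. adrbk2, a kinase that phosphorylates activated receptors, had 0.992 and 0.714 RPKM in hair cells against 0.780 RPKM in surrounding cells and was just under the level needed for a test.

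The hair cell replicates lay further apart for these rows than for all genes. Of 30 rows that reached 1 RPKM in a replicate (29 without grid2ipb), 3 (gabrp, p2rx2 and grm6b), or 10%, lay at least 1 apart on log2(RPKM + 1), and of 13147 such genes in all, 421 did (3.20%). The median distance was 0.43 for the 30 rows and 0.28 for all such genes. These are counts over genes, were not tested and were not matched for level. At least 5 RPKM was reached by 4 of the 179 rows in each hair cell replicate, and by 6278 and 6384 of all genes. The distance is therefore not read as a trait of receptor rows. gabrp, p2rx2 and grm6b were all higher in replicate 2. Over all 179 rows, 108 were higher in replicate 1 and 48 in replicate 2. Likewise, 31 rows had no reads in replicate 2 only and 9 had none in replicate 1 only, although replicate 2 had the more reads. All genes leaned the same way, with 8819 of 31387 at 0 in replicate 2 and 7836 in replicate 1. Of the 179 rows, 54 and 32 were at 0. The share of all genes higher in replicate 1 was not computed, so this lean is not read as a trait of receptor rows.

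**Figure D4:**
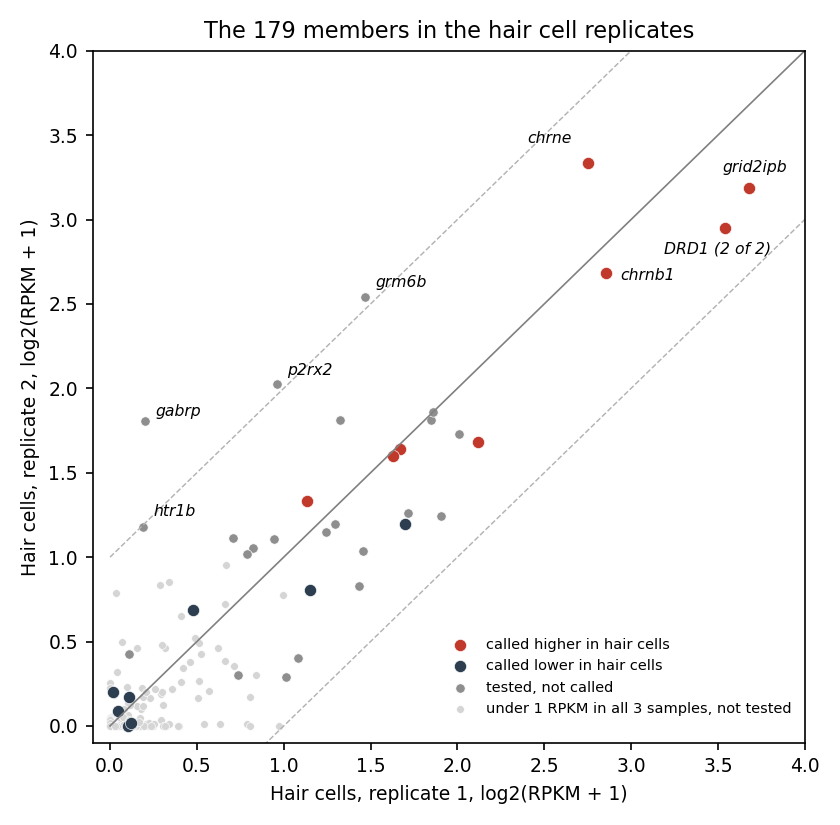
Level of the 179 rows in hair cell replicate 1 (x axis) and replicate 2 (y axis), both on log2(RPKM + 1), with the line of equality (solid) and lines 1 above and below it (dashed). The called genes lie within 1 of equality, and gabrp, p2rx2 and grm6b lie beyond it on the side of replicate 2.

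Genes that work with these receptors were counted in 4 lists taken by symbol, against the same background of 17.7% higher and 18% lower. The first held genes that assist, assemble or anchor receptors. Of its 86 rows, 42 were tested, 15 rose in hair cells and 4 fell, and the median difference over the 86 was 0.10. Quantile normalization gave 19 higher, beside 20% of genes, and 2 lower, beside 20.9%. nrxn3b, a presynaptic adhesion protein, had 27.7 and 29.1 RPKM in hair cells against 0.420 RPKM in surrounding cells. ric3b, a chaperone that promotes folding of alpha7 and other nicotinic subunits, had 3.79 and 4.94 RPKM in hair cells and no reads in surrounding cells, where 0 allows up to 0.153 RPKM. tmem35, named for a membrane protein whose mammalian form (NACHO) assists alpha7 assembly, had 19.8 and 23.8 RPKM in hair cells against 4.55 RPKM in surrounding cells. Both nicotinic chaperone genes were thus higher in hair cells in both replicates, with differences of 2.42 for ric3b (adjusted p = 0.0128) and 2.03 for tmem35 (adjusted p = 0.0129). rapsn, which clusters receptors at the muscle synapse, was lower, with 0.341 and 0 RPKM in hair cells against 1.80 RPKM in surrounding cells (difference -1.27, adjusted p = 0.0296).

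Other calls in this list went both ways. dlg1, a scaffold protein gene, had 28.9 and 26.3 RPKM in hair cells against 5.24 RPKM in surrounding cells (difference 2.19, adjusted p = 0.00944). cnih1, of the cornichon family that carries cargo such as AMPA receptor subunits out of the endoplasmic reticulum, had 17.0 and 25.0 RPKM in hair cells against 3.32 RPKM in surrounding cells (difference 2.33, adjusted p = 0.0174). homer3, which links group I metabotropic glutamate receptors to the postsynapse, was lower at 1.44 and 1.38 RPKM in hair cells against 6.03 RPKM in surrounding cells (difference -1.54, adjusted p = 0.0247).

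The list of transmitter synthesis, loading, uptake and breakdown had 66 rows, of which 27 were tested, 6 called higher and 10 lower, with a median of -0.17. slc17a8, the vesicular glutamate transporter of hair cells, had 147 and 157 RPKM in hair cells against 0.180 RPKM in surrounding cells. entpd2a.1, for an enzyme that breaks down ATP outside the cell, had 0.0472 and 0.0345 RPKM in hair cells against 8.34 RPKM in surrounding cells (difference -3.17, adjusted p = 0.00719), and nt5e, which turns AMP into adenosine, had 0.0598 and 0.357 RPKM against 5.52 RPKM (difference -2.44, adjusted p = 0.00998). mao, the amine-degrading monoamine oxidase, had 1.24 and 1.65 RPKM in hair cells against 5.40 RPKM in surrounding cells (difference -1.39, adjusted p = 0.0357). chata, th and ddc, genes for enzymes that make acetylcholine and dopamine, stayed under 1 RPKM in all samples. Quantile normalization gave 8 higher in this list, beside 20% of genes, and 8 lower, beside 20.9%.

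G protein and second messenger partners had 105 rows, of which 63 were tested, 6 called higher and 16 lower, with a median of -0.27. The inhibitory alpha subunit gene gnai1 had 73.1 and 86.7 RPKM in hair cells against 14.9 RPKM in surrounding cells (difference 2.34, adjusted p = 0.00909), and gnao1a was higher as well (difference 1.17, adjusted p = 0.0455). gna14, an alpha subunit that activates phospholipase C, had no reads in either hair cell replicate against 8.82 RPKM in surrounding cells. Its fall was called by limma (adjusted p = 0.00719, the lowest that any gene reached in this fit). With both hair cell values at 0, the spread behind this p came from other genes. In hair cell replicate 2 the 0 of gna14 allows up to 0.0145 RPKM at the floor of 3 reads. Of 27 regulators of G protein signalling (rgs symbols, grouped after their values were seen), 15 were tested, 2 called higher and 8 lower, with rgs12b at 17.6 and 15.0 RPKM in hair cells against 2.71 RPKM in surrounding cells, and rgs5b at 1.37 and 2.42 RPKM in hair cells against 71.1 RPKM in surrounding cells.

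Receptors of related transmitters outside the rule had 157 rows, of which 26 were tested, 8 called higher and 6 lower, with a median of -0.0037. Quantile normalization gave 14 higher, beside 20% of genes, and 5 lower, beside 20.9%. The list also takes in RAMP proteins, which modify peptide receptors and are no receptors themselves. npy1r, a neuropeptide Y receptor, had 14.1 and 16 RPKM in hair cells against 0.126 RPKM in surrounding cells, a difference of 3.83 ± 0.26 (SE, adjusted p = 0.00719). Its hair cell level was thus above that of any of the 176 receptor rows. calcrla, of the same list, was higher still, with 19.5 and 32.3 RPKM in hair cells against 3.01 RPKM in surrounding cells (difference 2.70, adjusted p = 0.0181). The trace amine receptor gene taar20n had 8.84 and 11.4 RPKM in hair cells against 0.856 RPKM in surrounding cells (difference 2.57, adjusted p = 0.0120), and taar genes have near-identical copies among which reads cannot be assigned with certainty. Of 5 opioid receptor rows, grouped after their values were seen, oprm1 and oprd1a were called lower in hair cells, with oprm1 at 0.182 and 0.0779 RPKM in hair cells against 2.24 RPKM in surrounding cells (difference -1.52, adjusted p = 0.00925).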

How the data were processed

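Sorted cells were sequenced after RNA purification (Qiagen miRNeasy) and cDNA synthesis with SMART-Seq, a full-length method with amplification. The authors mapped to GRCz10, as the submitters' processing notes name it, and deposited 1 table of RPKM values per gene and technical replicate. Aligner, counter, annotation and strand setting were not given in the sources used here. Thus overlapping and antisense genes cannot be told apart. The 4 columns of the authors' means and standard deviations were not used. Of 31388 rows, 1 exact repeat was dropped.

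Technical replicates were averaged and counted as 1 sample. Genes of at least 1 RPKM in a sample (15803) were compared on log2(RPKM + 1), which understates changes of low genes, with limma 3.58.1 in R 4.3.3 (moderated variance with trend, Benjamini-Hochberg over all genes). The fit had 1 residual degree of freedom, so the lone surrounding cell sample was assumed to vary like hair cells. Moderation borrowed spread from other genes and raised the total to a median of 3.42 degrees of freedom. Each SE and p thus rests in part on other genes, and covers no spread beyond these samples. For a gene at 0 in both hair cell replicates, the spread came from other genes alone. An exact permutation test of 2 against 1 cannot go below p = 0.333. Fits were also run on simulated reads in which all samples had the same spread. The simulation therefore cannot check the assumption on the surrounding cells, and nothing is concluded from it.

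Whole reads (within 0.001) were recovered from steps between low RPKM values for 26519 of 26520 genes above 0 and for all tested genes. The mapped reads of each sample were likewise inferred from low RPKM values, and all read counts and floors rest on them. A gene's reads may all be understated by 1 shared factor, and reads are not molecules. Intervals and floors of 3 reads cover counting error only. limma-voom on these reads called 2907 genes higher and 3346 lower, against 2799 and 2851 in the RPKM fit.

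Members, lists and tests were chosen with earlier results of these data known. Named were all called members, the 10 highest in each cell group, the highest of each class and rows encoding no receptor. Other genes were named to complete a receptor or family, after their values were seen. Of the 179 member identifiers, 168 were in a current gene name table. Alternatives were other pseudocounts, filters, scalings, single technical replicates, the fit to reads, and leaving out each hair cell replicate. Quantile normalization was run over the 15803 tested genes for limma calls. For medians, the rule of size and counts of rows higher or lower in both replicates it was run over all 31387 rows. The same settings were applied to the 4 gene lists, which was decided after seeing the data.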

Additional observations from a re-analysis of the deposited data

How the results depend on the processing

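No paired analysis was possible because the surrounding cells had 1 biological sample, so the groups share only 1 replicate number. Receptor calls, 8 higher and 8 lower, were 3 and 2 with a pseudocount of 5 RPKM, 4 and 2 with a filter at 5 RPKM, 2 and 6 with no filter, and 15 and 5 with quantile normalization. The cause was not tested, except that the stricter filter leaves 7 members. Calls over all genes moved too. They were 1603 higher and 1225 lower of 15803 tested at pseudocount 5, and 2709 and 1713 of 8429 at filter 5. With no filter they were 1464 and 1740 of 26520, where 172 members were tested. Quantile normalization gave 3158 and 3305 of 15803 genes. P2RY2 (1 of 3) and grid2ipb were called in every fit. Not called with recovered reads were DRD1 (2 of 2), drd3, grm4 and chrna7. Without a hair cell replicate there is no test, and the rule of size, 9 higher and 8 lower, then gave 14 and 8 without either replicate. It gave 16 higher at a pseudocount of 0.1 RPKM, 2 and 2 at 5 RPKM, 4 and 2 at the stricter filter, and 5 lower under quantile normalization. The share of all genes past the rule of size was computed at the main setting only, so these shifts are not read as particular to receptor rows. The median of -0.067 was -0.46 and -0.014 with these pseudocounts, 0.018 under quantile normalization, and -0.11 to -0.059 without a replicate.

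List calls (higher, lower) also moved, with settings added after seeing the data. Calls over all genes at most of these settings are given above. At pseudocount 0.1 they were 2816 and 2386 of 15803 genes, and from technical replicate 1 they were 2442 and 2689 of 15854. Auxiliary genes (15, 4) gave 5 and 0 at pseudocount 5, 9 and 1 unfiltered, 9 and 1 at filter 5, and 2 lower at pseudocount 0.1 and under quantile normalization. Transmitter handling (10 lower) gave 3, 6 and 4 lower at pseudocount 5, unfiltered and at filter 5, and 6 lower from technical replicate 1. G protein partners (6, 16) gave 3 and 9 at pseudocount 5, 3 and 9 unfiltered, 3 higher at filter 5 and 10 higher under quantile normalization. Other receptors (8, 6) gave 4 and 1 at pseudocount 5, 4 higher unfiltered, 4 and 1 at filter 5, 14 higher under quantile normalization, and 4 and 3 with recovered reads.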
